A study of Bubalus bubalis with 12 samples.

Results

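The genes examined were those for making fatty acids and for lengthening and desaturating them: SREBF1, ACLY, ACACA, FASN, SCD, ELOVL5, ELOVL6, FADS1 and FADS2. Their expression was measured by RNA-seq in the ruminal wall of the Italian Mediterranean dairy buffalo (Bubalus bubalis). The genes were chosen by name from a table of 34037 genes, and 8 of the 9 names were listed there. No row was named FASN. The row with gene identifier 102409414 is listed as LOC102409414, and the RefSeq gene table, which is of another assembly (NDDB_SH_1) than the one the authors aligned to, names this gene FASN. Its values are given beside those of the 8 genes and are left out of their counts.

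The control group was 6 animals fed a total mixed ration (TMR), and the treated group was 6 animals fed TMR with 30% of green feed, which was ryegrass. The paper describes the rations as matched for nitrogen and energy. By its figures the treated ration also held less corn silage and alfalfa hay, no soybean meal, more fat and a higher share of forage. All 12 animals were adult multiparous cows in milk, kept on their diets for several weeks and killed together, and the wall was taken at slaughter, and each animal gave 1 library of total RNA from frozen tissue. The comparison asks whether gene expression in the wall differs between these whole rations, and the animals were not crossed between diets. Since a piece of wall holds several cell types, fewer cells of a type and less RNA per cell cannot be told apart.

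Fatty acids are built in the cytosol from acetyl-CoA. ACLY makes acetyl-CoA from citrate, ACACA turns it into malonyl-CoA in the committed step, and FASN joins these units into palmitate. ELOVL6 then lengthens palmitate, SCD puts the first double bond into saturated chains, and ELOVL5, FADS1 and FADS2 act on polyunsaturated chains. SREBF1 encodes a transcription factor that turns on many of these enzymes. Ruminants are known for drawing acetyl-CoA for fat largely from acetate, which ACSS2 activates, and the stratified squamous epithelium of the rumen is the site where acetate and the other short-chain acids are taken up.

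The tissue was checked against marker genes. The epithelial keratins KRT13 and KRT5 had mean levels of 1572 and 1493 FPKM (fragments per length of the gene and per depth of the library), and the desmosomal DSG3 and DSP had 686 and 553 FPKM. KRT4 and DSG1, of the same list, were low, with means of 0.494 and 3.48 FPKM. The 10 squamous markers that were listed summed to 3839 to 6962 FPKM in the control group and 3824 to 7676 FPKM in the treated group. Among 10 fat cell markers, ADIPOQ, LEP and PCK1 had 0 reads in all 12 animals and PLIN1 had at most 3 reads. The list summed to 82.0 to 291 FPKM in the control group and 84.5 to 157 FPKM in the treated group, of which FABP4, with a mean of 85.7 FPKM, was the largest part. CIDEA and PPARG, of the same list, had means of 23.9 and 23.3 FPKM. The counted fragments behind the values were between 10531245 and 12947982 per animal, and values that rest on at most 3 reads are described as at the floor.

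ACLY, the citrate-cleaving enzyme, was the most abundant of the genes. In the control group its FPKM had a lowest value of 26.5, a median of 35.1 and a highest value of 48.6, and in the treated group 20.7, 35.8 and 43.9. The groups overlapped over most of their range, and the mean was 35.8 ± 8.35 FPKM (SD, n = 6) in the control and 34.3 ± 9.03 FPKM (SD, n = 6) in the treated animals. ACLY was higher than 92.6% of the genes above 0 in the table. Its log2 fold change, treated over control, was -0.08 (SE 0.20, 95% confidence interval -0.51 to 0.35; exact permutation p = 0.729, two-sided).

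ACACA, which makes malonyl-CoA, stood below ACLY in every animal, with an ACLY to ACACA ratio of FPKM of 4.23 to 6.84 and a median of 5.78. Its FPKM ran from 4.17 to 7.92 (median 6.13) in the control group and from 4.63 to 9.19 (median 5.82) in the treated group. Treated replicate 1 was the highest animal and control replicate 3 the lowest, and the other treated animals lay within the range of the control group. The log2 fold change was 0.04 (SE 0.20, 95% confidence interval -0.39 to 0.47; exact permutation p = 0.851).

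FASN (LOC102409414), the multidomain synthase, was at 3.25 to 8.65 FPKM (median 7.26) in the control group and at 2.02 to 9.34 FPKM (median 6.97) in the treated group. Replicate 6 was the lowest animal of each group. No source says that these numbers link animals across groups. The log2 fold change of FASN was -0.06 (SE 0.36, 95% confidence interval -0.84 to 0.72; exact permutation p = 0.898), the widest interval among the genes above the filter.

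SREBF1, the transcription factor gene, was at 5.13 to 7.19 FPKM (median 5.79) in the control group and at 3.23 to 8.63 FPKM (median 6.35) in the treated group. The treated animals spread on both sides of the control range, with treated replicates 5 and 6 below every control animal and treated replicate 2 above. The means were alike, 5.97 ± 0.713 and 5.96 ± 1.99 FPKM (SD, n = 6 each), and the log2 fold change was -0.07 (SE 0.22, 95% confidence interval -0.54 to 0.40; exact permutation p = 0.764).

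SCD, the stearoyl-CoA desaturase, which also makes conjugated linoleic acid from a product of ruminal hydrogenation, had the lowest fold change of the genes above the filter. In the control group its FPKM had a lowest value of 7.70, a median of 8.94 and a highest value of 9.76. In the treated group these were 3.20, 6.88 and 14.0, and the 6 treated animals, from replicate 1 to replicate 6, were at 14.0, 8.31, 9.83, 5.45, 4.85 and 3.20 FPKM. Of these, 2 were above every control animal and 3 below every control animal. The means were 8.75 ± 0.850 and 7.61 ± 3.97 FPKM (SD, n = 6 each), with 485 to 606 reads behind the control values and 207 to 854 behind all 12. The log2 fold change was -0.36 (SE 0.29, 95% confidence interval -0.99 to 0.27; exact permutation p = 0.312), and the smaller spread in the control group was not tested.

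ELOVL6, which elongates palmitate, varied least between animals, with a coefficient of variation of 15.9% and a 1.64-fold distance from lowest to highest. Its FPKM had a lowest value of 10.2, a median of 13.3 and a highest value of 16.8 in the control group, and 10.8, 11.9 and 14.0 in the treated group. All 6 treated animals lay within the control range. The log2 fold change was -0.12 (SE 0.13, 95% confidence interval -0.41 to 0.17; exact permutation p = 0.353).

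ELOVL5, the elongase of polyunsaturated chains, was at 1.20 to 3.83 FPKM (median 1.74) in the control group and 1.32 to 3.13 FPKM (median 2.44) in the treated group. Its values rested on 44 to 121 reads. Control replicate 6 was the highest animal, above the other 5 control animals at 2.05 FPKM or less. The log2 fold change was 0.23 (SE 0.31, 95% confidence interval -0.44 to 0.90; exact permutation p = 0.470). The ELOVL6 to ELOVL5 ratio of FPKM was above 1 in every animal, at 3.44 to 11.8 with a median of 6.21.

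The front-end desaturase genes FADS1 and FADS2 were near the lower limit of detection. FADS1 had 3 to 20 reads per animal, and its FPKM was 0.0646, 0.103 and 0.408 (lowest, median and highest) in the control group and 0.0877, 0.110 and 0.199 in the treated group. FADS2 was listed at 0 in 6 animals, had 0 to 4 reads and was at the floor in 10 of 12 animals, so that no fold is given. Over the 12 animals FADS1 had 83 reads in all and FADS2 had 15. Neither gene passed the filter of 1 FPKM in at least 1 animal, and the exact permutation p of FADS1 was 0.926. In the RefSeq table these genes stand beside FADS3, with 2 genes between FADS1 and FADS2 and 0 between FADS2 and FADS3. FADS3, named for its place, was at the floor in 11 of 12 animals, with 0 to 13 reads.

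**Figure D1:**
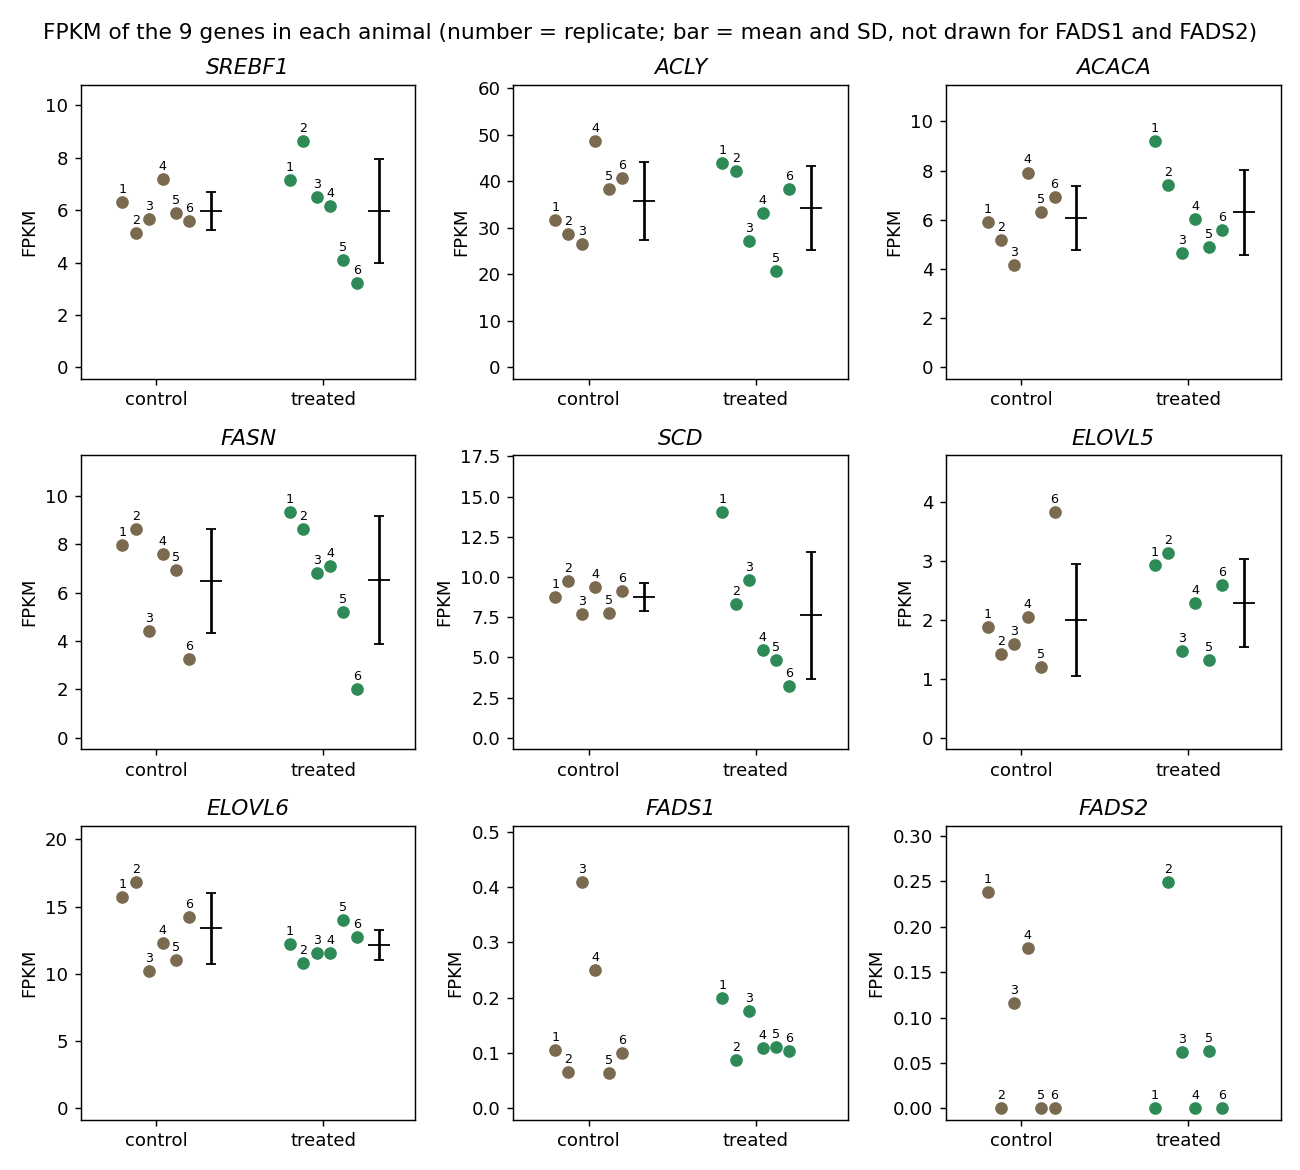
FPKM of each of the 9 genes in the 6 control and 6 treated animals, with 1 panel per gene, 1 point per animal, and the mean and SD of each group where they are given (not for FADS1 and FADS2). The groups overlap in each panel, and SCD in the treated group spans from 3.20 to 14.0 FPKM against 7.70 to 9.76 in the control group.

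The order of the levels, by the geometric mean of FPKM (per length) over the 12 animals, was ACLY, ELOVL6, SCD, ACACA, FASN, SREBF1, ELOVL5, FADS1 and FADS2. Each of the 8 neighbouring pairs was tested by an exact sign-flip permutation over the 12 animals, with Benjamini-Hochberg adjustment over the pairs. ACLY was above ELOVL6 in 12 of 12 animals by 2.70-fold (adjusted p = 0.0013, exact test), and ELOVL6 was above SCD in 11 of 12 by 1.64-fold (adjusted p = 0.00195, exact test). SCD was above ACACA by 1.27-fold in 9 of 12 animals, which missed the threshold after adjustment (adjusted p = 0.0599, exact test). ACACA, FASN and SREBF1 lay together, and their order was not settled. The ratio of geometric means of ACACA to FASN was 1.01 (exact p = 0.962), with ACACA higher in 3 of 12 animals and FASN in 9. The ratio of FASN to SREBF1 was 1.03 (exact p = 0.712), with FASN higher in 9 of 12. SREBF1 was above ELOVL5 by 2.88-fold and ELOVL5 above FADS1 by 14.6-fold, both in 12 of 12 animals (exact p = 0.000488, the smallest the test can give). The folds are of FPKM + 0.01, and this pseudocount lowers that of ELOVL5 over FADS1, with geometric means of 2.01 and 0.128 FPKM. FADS1 was above FADS2 in 10 of 12 animals (adjusted p = 0.0148, exact test). FADS2 was at 0 in 6 animals and at the floor in 10, so that this test rests in part on the pseudocount. The 9 genes together took 0.0316 to 0.0504% of the counted fragments in the control group and 0.0300 to 0.0535% in the treated group.

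The comparison of the diets gave 0 of the 6 genes above the filter with a nominal p below 0.05 in limma, the threshold that the study used. Across the 14332 genes tested, 252 were past this threshold (1.76%), 148 higher in the treated group (1.03%) and 104 lower (0.726%). After Benjamini-Hochberg adjustment 0 genes were past 0.05 (0.0%), and the smallest adjusted p in limma was 0.9997. The groups were without overlap in 0 of the 6 genes, against 8 of all genes tested (0.0558%). The voom test on the reads behind the FPKM also called 0 of the 6 genes. Of the 6 genes, 2 had a log2 fold change above 0 and 4 below 0, with a median of -0.07 against 0.0049 for all genes tested, and a median absolute change of 0.10 against 0.11. Expressed as folds, the interval of SCD ran from 0.503 to 1.20 around 0.778. This interval gives the range of changes of SCD that the data of 6 animals per group allow, and it includes no change. Its bounds are not the smallest change that could have been detected.

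**Figure D2:**
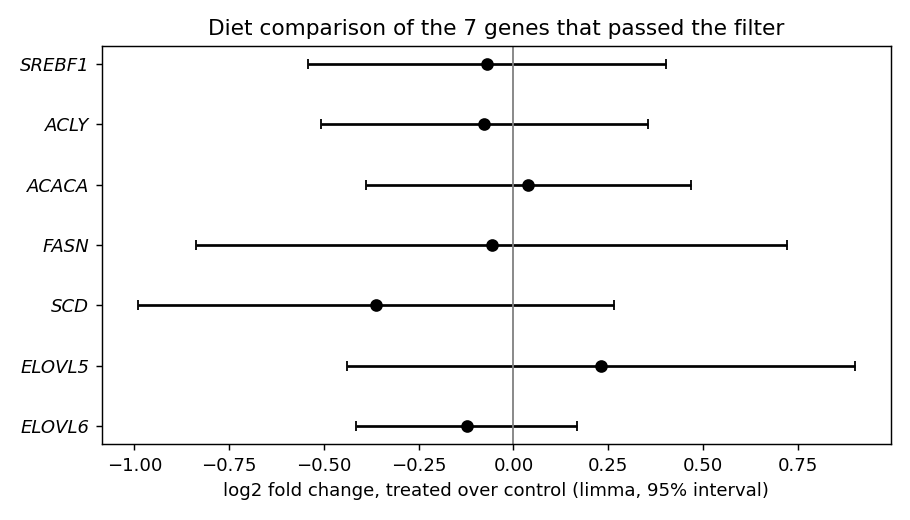
Log2 fold change, treated over control, of the 7 genes above the filter, as points with 95% confidence intervals from limma on log2(FPKM + 0.01). Every interval contains 0, and SCD has the lowest estimate, -0.36.

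Of the cell type marker scores, only that of smooth muscle had an unadjusted exact permutation p below 0.05 between the diet groups. The smooth muscle markers, 9 of 10 above the filter, summed to 28.9 to 51.2 FPKM in the control and 15.5 to 40.7 FPKM in the treated group. Their mean score was lower by a log2 difference of -1.10 in the treated group (exact permutation p = 0.0455, not adjusted over the scores). The score includes CNN1 and ACTG2 (log2 fold changes -3.06 and -2.21), each at the floor in 3 animals, whose folds depend on the pseudocount. SMTN, the most abundant of the list, was at 13.4 FPKM in the control and 13.5 FPKM in the treated group. The fibroblast markers summed to 45.2 to 280 FPKM in the control and 18.9 to 187 FPKM in the treated group (exact permutation p = 0.320). The scores gave exact permutation p-values of 0.916 for squamous epithelium, 0.617 for fat cells, 0.801 for endothelium and 0.617 for immune cells. Only 4 of the 10 fat cell markers were above the filter and entered their score. With the smooth muscle and fibroblast score in the fit, the log2 fold change of SCD was -0.74 with a nominal limma p of 0.0233 and an adjusted p of 0.9999, against -0.36 without it. The same score moved FASN from -0.06 to -0.42, ACLY from -0.08 to -0.31, SREBF1 from -0.07 to -0.27, ACACA from 0.04 to -0.20, ELOVL5 from 0.23 to 0.10 and the median of the 6 genes from -0.07 to -0.24, with nominal limma p-values of these 5 genes from 0.161 to 0.785. The value of SCD also depended on single animals: without treated replicate 1 it was -0.57 with a nominal limma p of 0.0414, and without treated replicate 6 it was -0.15 with a nominal limma p of 0.552. With all 12 animals and the fat cell score in place of the smooth muscle and fibroblast score, the log2 fold change of SCD was -0.47. With the squamous epithelium score in its place it was -0.39. In both of these fits 0 of the 6 genes passed the nominal threshold. The part of tissue composition in the values of SCD was not tested further.

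Between animals, ACLY and ACACA, the genes of the first steps, varied together. Of the 21 pairs of the 7 genes, 16 had a positive Pearson r, and 3 passed a permutation test with an adjusted p below 0.05. They were the closest pair, with r = 0.862 (permutation p = 0.00048, adjusted p = 0.0101) and rho = 0.951 (permutation p = 2e-05, adjusted p = 0.00042). This held within the control group (r = 0.960) and within the treated group (r = 0.818), and r was 0.909 without treated replicate 5 and control replicate 4. It was also the 1 pair of the 3 that passed by Spearman's rho.

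SREBF1 was related to SCD with r = 0.762 (permutation p = 0.00598, adjusted p = 0.0496) and rho = 0.538 (permutation p = 0.0757, adjusted p = 0.199). It was related to FASN with r = 0.761 (permutation p = 0.00709, adjusted p = 0.0496) and rho = 0.678 (permutation p = 0.0191, adjusted p = 0.199). Both relations were weaker without treated replicates 5 and 6, the animals with the lowest SREBF1, at r = 0.182 for SCD and 0.471 for FASN. Leaving out these animals also narrows the range of SREBF1, which tends to lower r. With values centred on the group means r was 0.779 for SCD and 0.761 for FASN (permutation, adjusted p = 0.0359 each). Within the control group r was 0.0283 for SCD and 0.258 for FASN, and within the treated group 0.829 and 0.914. The difference between the groups was not tested.

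**Figure D3:**
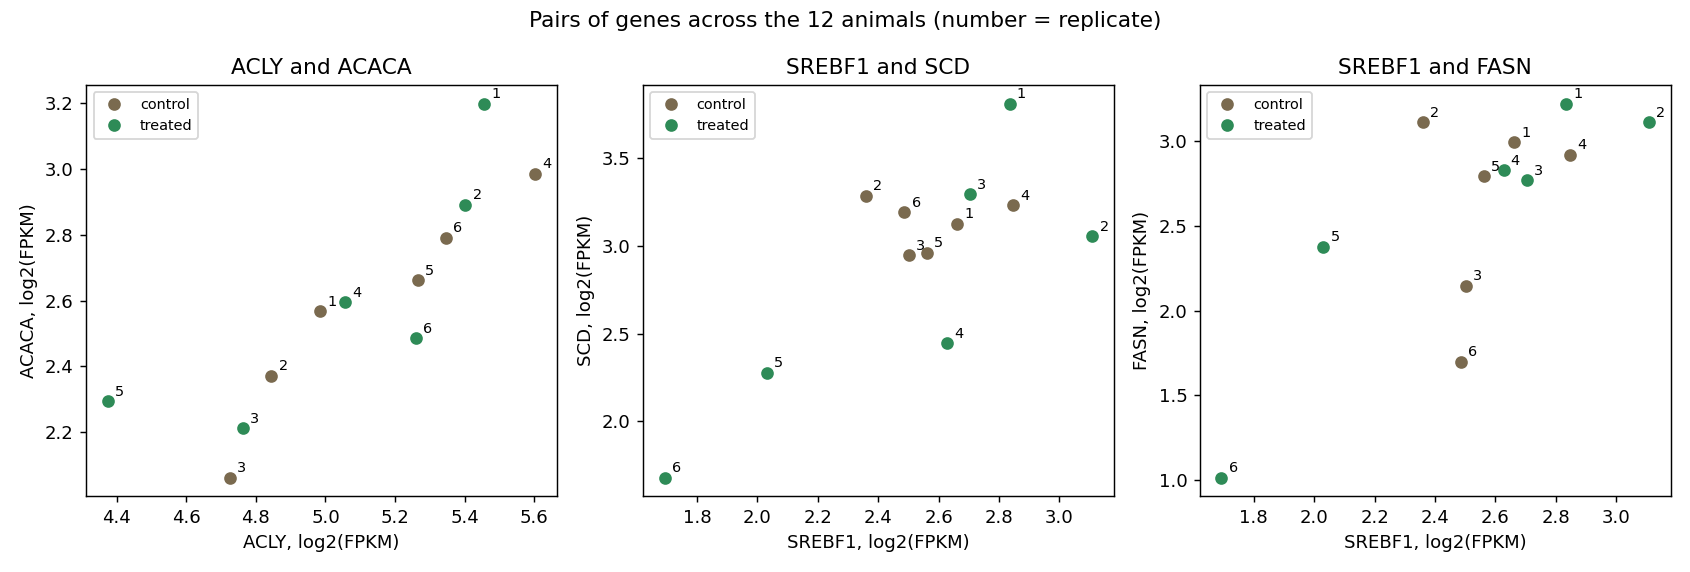
Log2 FPKM of pairs of genes in the 12 animals, with 1 point per animal and the diet group by colour. ACLY and ACACA (r = 0.862) fall along 1 line in both groups. In the panels of SREBF1 with SCD and with FASN, treated replicates 5 and 6 lie at the low end of SREBF1.

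The 7 genes were also set beside the 6 marker scores, which made 42 relations. FASN and the squamous epithelium score had r = 0.838 (permutation p = 0.00024, adjusted p = 0.0101) and rho = 0.664 (permutation p = 0.0221, adjusted p = 0.199). The r was 0.829 within the control group, 0.847 within the treated group and 0.555 without treated replicate 6 and control replicate 6. No other relation of the 42 passed the adjusted threshold over the pooled animals, whereas 5 passed when the values were centred on the diet group means. Of these, FASN and the squamous epithelium score had a centred r of 0.841 (permutation, adjusted p = 0.0118). ACACA and the immune cell score had a pooled r of 0.733 (permutation, adjusted p = 0.134) and a centred r of 0.754 (permutation, adjusted p = 0.0476). ELOVL5 and the immune cell score had a pooled r of 0.675 (permutation, adjusted p = 0.152) and a centred r of 0.739 (permutation, adjusted p = 0.0476). FASN and the fibroblast score had a pooled r of -0.70 (permutation, adjusted p = 0.152) and a centred r of -0.75 (permutation, adjusted p = 0.0476). SCD had a pooled r of -0.59 with the fibroblast score (permutation, adjusted p = 0.253) and a centred r of -0.78 (permutation, adjusted p = 0.0443), and within the treated group r was -0.91.

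The genes with the most similar pattern over the 12 animals were picked by Pearson's r of log2(FPKM + 0.01) among 12283 genes. For SREBF1 these were WWC1, SBNO2 and UBALD2, with r of 0.912, 0.910 and 0.897. For ACLY the named gene was CKAP4 (r = 0.908), behind LOC102414263 and LOC112584573 (0.944 and 0.915). For ACACA they were NFKBIZ, SPN and JAK3 (r of 0.895, 0.894 and 0.886), of which SPN and JAK3 are known from leukocytes. For FASN they included SMARCA4 and ARAP1 (r of 0.985 and 0.978), and for SCD they were ESCO1, EIF3A and GPT2 (r of 0.930, 0.926 and 0.909). ELOVL5 was most like MB21D2, LOC102415974 and CMPK2 (r of 0.936, 0.924 and 0.917), and ELOVL6 was most like ZBTB26, SLX4IP and LOC112581767 (r of 0.881, 0.878 and 0.876). These values are the highest of many and are given as a description.

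The other genes of the pathway were taken by role from 4 lists of 62 genes, of which 59 were listed in the table and 49 were tested. In limma, 0 of the 49 had a nominal p below 0.05 in either direction, with 20 log2 fold changes above 0 and 29 below 0, a median of -0.02 and a range of -0.55 to 0.71. The lowest nominal limma p, 0.0572, was that of HSD17B12, the ketoacyl-CoA reductase of the elongation cycle, at 27.3 ± 2.26 FPKM in the control and 23.7 ± 2.90 FPKM in the treated group (SD, n = 6 each; log2 fold change -0.21). It passed the nominal threshold in the limma fit blocked on replicate number, and also without control replicate 4, without treated replicate 1 and without treated replicate 6, and its adjusted p in these 4 fits was 0.959 or higher. TECR, the last enzyme of that cycle, was at 24.6 ± 9.22 and 24.0 ± 9.07 FPKM.

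Of the genes that supply the precursors and NADPH, IDH1, the cytosolic NADPH-forming dehydrogenase, was the most abundant at 340 ± 72.6 FPKM in the control and 339 ± 93.6 FPKM in the treated group (SD, n = 6 each). SLC25A1, the mitochondrial citrate exporter, was at 77.5 ± 23.3 and 75.4 ± 21.6 FPKM, and its ratio to ACLY ran from 0.781 to 4.26 with a median of 2.31. ACSS2, named after its values were seen because it is the acetate route, was at 17.3 ± 3.01 and 19.1 ± 2.98 FPKM. The ACLY to ACSS2 ratio of FPKM was above 1 in all 12 animals, from 1.12 to 3.16 with a median of 2.05 (exact permutation p of the diet difference = 0.459). Among the regulators, the oxysterol receptor gene NR1H2 was at 26.0 ± 7.29 and 26.8 ± 5.55 FPKM and MLX, the partner of the carbohydrate-responsive factor, at 19.2 ± 3.67 and 22.0 ± 2.46 FPKM.

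In the esterification list AGPAT2, which acylates lysophosphatidic acid, was at 71.3 ± 11.3 and 71.5 ± 8.53 FPKM, and the acyl-CoA synthetase gene ACSL3 at 26.4 ± 2.60 and 26.1 ± 1.57 FPKM. FADS6, a desaturase-like gene named after its values were seen, was at 21.5 ± 9.88 FPKM in the control and 25.2 ± 6.57 FPKM in the treated group, above SCD in every animal (ratio of FPKM 1.22 to 5.21, median 2.86). The genes that follow were likewise named after their values were seen. OLAH, the thioesterase that ends chains early, and the elongase gene ELOVL3 had 0 reads in all animals, and ELOVL2 had at most 1. ACACB, the form of the carboxylase at mitochondria, had at most 11 reads and was at the floor in 8 of 12 animals. At this depth a level of these genes could not be told from 0 in most animals.

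**Figure D4:**
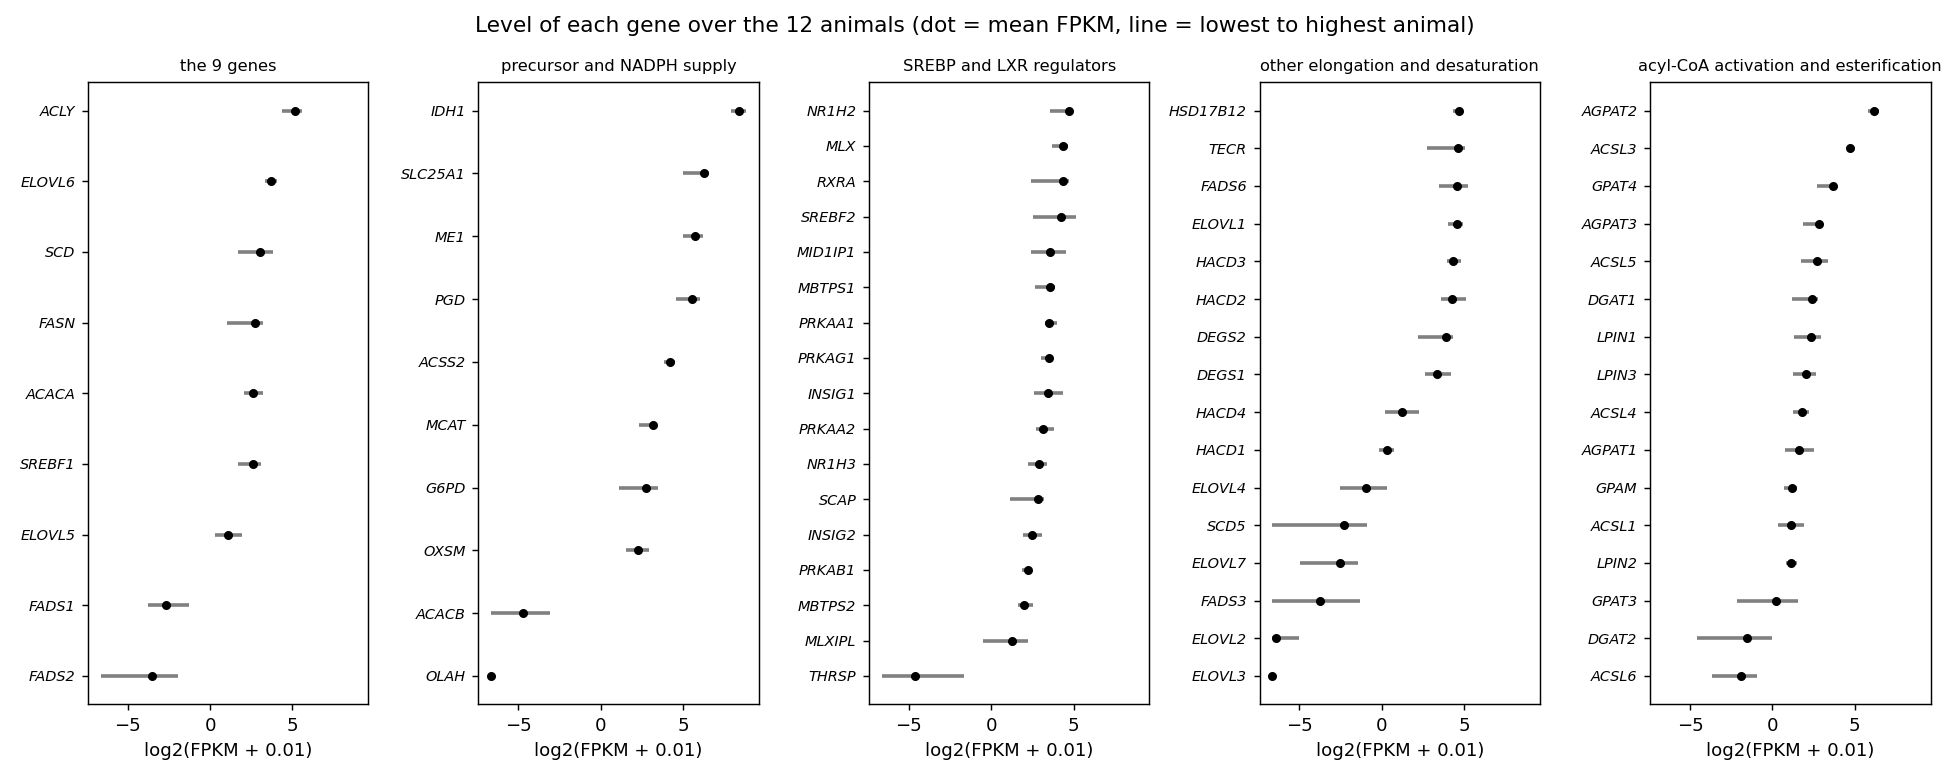
Levels of the 9 genes and of the 4 lists, in 5 panels, with log2(FPKM + 0.01) on the axis. Dots are the log2 of the mean FPKM plus 0.01, with the mean taken over the animals of both groups. Lines run from the lowest to the highest of these animals, and the groups are not drawn apart. IDH1, SLC25A1 and AGPAT2 lie above ACLY, and FADS2, ACACB and OLAH lie at the lower end.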

How the data were processed

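The ruminal wall of 12 buffaloes was examined, with 6 control and 6 treated animals. Per the submitters' notes and the methods, the authors used FastQC 0.11.5 for quality, Trimmomatic 0.39 for trimming, STAR 2.5.2b for alignment to the UOA_WB_1 build, and featureCounts 2.0.0 for counting per gene. The authors deposited FPKM values, and the step from counts to FPKM is not given in the sources used here. Of the columns in the table, 4 match no sample and were not used. Reads per value were worked out from the FPKM steps within each gene.

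Genes that reached 1 FPKM in 1 or more animals were tested with limma 3.58.1 in R 4.3.3 (trend) on log2(FPKM + 0.01), on which the fold of a low gene depends on the pseudocount and on its animals at 0, with Benjamini-Hochberg adjustment. Single genes were tested by exact permutation over 924 assignments (smallest p 0.00216) and relations with 100000 resamples, in Python 3.11.15 with scipy 1.17.1. The limma step was tested on simulated data. The p-values of the diet comparison set the difference between the groups against the spread between animals.

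The 9 genes and the pathway and marker lists were chosen with earlier results of these data known. Replicate numbers are those of the sample descriptions, and the sample titles number control replicate 6 and the treated animals otherwise. Named by rule were the 9 genes, the 2 most abundant and any called gene of each pathway list, and the 3 genes most like each gene of the 7 above the filter. For FASN, 1 of these is not reported here. The alternatives tried were pseudocounts, filters, scaling, robust and blocked fits, marker scores as covariates, voom (chosen after seeing the data), and each replicate left out.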

Additional observations from a re-analysis of the deposited data

Results flagged for a closer look

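In 18 groups of 6 animals, each gene in each diet, the distance of the highest or lowest animal to the nearest other was compared with the whole range of the group, with 0.625 as the critical value of Dixon's test. For normally distributed values chance gives about 1 such group in 20. This rate does not hold for FADS2, whose few reads are tied at 0 in several animals. ELOVL5 in control replicate 6, at 3.83 FPKM, stood apart from the other 5 control animals with a gap of 0.676 of the range. FADS2 in treated replicate 2, at 0.249 FPKM from 4 reads, stood apart from the other 5 treated animals with a gap of 0.746 of the range.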

How the results depend on the processing

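In every alternative, 0 of the 6 genes passed the adjusted threshold. The count of the 6 genes with a nominal p below 0.05 was 1 (SCD) with the smooth muscle and fibroblast score as a covariate and 0 to 1 when each replicate was left out (1 is SCD without treated replicate 1). The genes past the nominal threshold numbered 562 with no filter, 414 with that covariate, 405 with the replicate block and 215 to 390 with a replicate left out (390 without treated replicate 6), against 252. voom gave 211. Past the adjusted threshold there were 0 to 1, the 1 being LOC112578305 without control replicate 4. Of the pathway genes, 1 passed with the replicate block (HSD17B12) and 0 to 2 with a replicate left out. Deviations of same-numbered animals correlated with r from -0.00726 to 0.223, with a mean of 0.0929 against -0.0182 for the other combinations. Of the 12 samples, 7 correlated best with their own number. The numbers are those of the descriptions and differ from those of the titles, and no source gives them as pairs. The main fit did not pair them, and whether they link animals was not tested further. With the replicate block the SE of FASN was 0.18 against 0.36. The log2 fold change of ACACA was -0.20 with the covariate, and the difference of medians was 0.13 for SREBF1, 0.0324 for ACLY and -0.0748 for ACACA. With a replicate left out the ranges were -0.19 to 0.0915 for SREBF1, -0.16 to 0.0585 for ACLY, -0.0776 to 0.12 for ACACA, -0.24 to 0.25 for FASN, -0.57 to -0.15 for SCD, 0.11 to 0.44 for ELOVL5, -0.20 to -0.05 for ELOVL6 and -0.13 to 0.04 for the median of the 6. With values centred on group means, 5 pairs of genes passed instead of 3, and 5 relations with marker scores instead of 1. The causes were not tested. Depth limited FADS1 and FADS2.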
